A study of Bos taurus with 10 samples.

Results

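Ubiquitin conjugating enzymes (UBE2 genes), deubiquitinating enzymes (USP, OTUD and UCHL genes) and cullins (CUL genes) were examined in the longissimus dorsi, a back muscle, of Hanwoo, the Korean native beef cattle. Poly(A) RNA of 10 animals, numbered 1 to 10, was read on 10 Affymetrix bovine arrays, which measure a transcript with a set of short probes called a probe set. The animals form 1 group with no treatment, and an age of about 2 years is given for animal 1. The study aimed to relate expression to beef traits, whose values were not analysed here. A gene was a member if the platform annotation gave its probe set a single symbol that starts with UBE2, or that is USP, OTUD, UCHL or CUL and a number. USP18 was left out. This gave 61 genes with 86 probe sets, of 9155 genes with 13292 probe sets, and the brightest probe set stood for each gene. They were 26 UBE2, 26 USP, 2 OTUD, 3 UCHL and 4 CUL genes.

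Ubiquitin is passed from an activating enzyme to a conjugating enzyme, and from there a ligase directs it to a target protein. Cullins are the scaffolds of a large class of ligases, many of which become more active when the ubiquitin-like protein NEDD8 is attached to the cullin. Chains of ubiquitin can send a protein to the proteasome, and deubiquitinating enzymes trim or remove them. In skeletal muscle this route degrades contractile proteins and is known for its part in muscle wasting.

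Levels are given as log2(signal + 16) after quantile normalization, so a difference of 1 is a doubling for bright probe sets and less than the true change for dim ones. Errors are the SD over the animals, with n = 10 unless stated. Genes entered the tests with a mean over 6.98, the middle level of the non-control probe sets. Of the 61 genes, 54 passed, against 6271 of 9155 genes in all. The 7 that did not pass were UBE2C, USP3, USP12, USP30, USP37, USP46 and USP50. UBE2J1 stood just above the limit at 7.06 and USP46 just below it at 6.92. Probe sets differ in how they turn RNA into signal, so no order of abundance between genes is read from the levels. In bulk muscle, fewer cells of a type and less RNA per cell cannot be told apart.

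The tissue label held: 9 of 9 measured skeletal muscle markers passed the filter, from 15.22 (DES) to 16.05 (TNNC1). Animal 5 stood apart in its array controls before any enzyme was considered. Poly(A) RNAs spiked in as labelling controls were brighter at the 3′ end than at the 5′ end by 2.67 (log2) in animal 5 and by 0.78 to 1.06 in the rest. The same difference for GAPDH was 0.70 in animal 5 and -0.29 to 0.17 in the others, while for actin animal 5 lay within the range of the others at -0.17. The tests and the spreads that turn on animal 5 are given below with and without it. The array median intensity lay between 110.9 and 134.4.

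Of the conjugating enzymes, 25 of 26 passed the filter. The brightest probe set was that of UBE2G1, an enzyme that builds degradation chains, at 13.86 ± 0.32 (lowest 13.53, median 13.76, highest 14.56). UBE2B, a conjugating enzyme known from studies of muscle wasting, followed at 13.75 ± 0.26 (lowest 13.24, median 13.78, highest 14.06). The broad-acting UBE2D3 stood at 13.12 ± 0.12 and its relative UBE2D4 at 12.23 ± 0.31. UBE2E3 had 12.12 ± 0.30, and UBE2V1, a catalytically inactive partner of UBE2N, 12.03 ± 0.21. The 25 tested UBE2 genes ran down to UBE2J1, an enzyme of the endoplasmic reticulum, at 7.06. Transcripts of nearly the same sequence, such as UBE2D2, UBE2D3 and UBE2D4, may share probe signal, which was not tested.

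UBE2D2 (11.44 ± 0.28), UBE2E1 (11.52 ± 0.24), UBE2K (10.26 ± 0.24), UBE2L3 (9.67 ± 0.25), UBE2W (8.64 ± 0.33), UBE2Z (9.25 ± 0.18) and UBE2E2 (7.72 ± 0.27) lay between these ends. UBE2W attaches ubiquitin to the N terminus of proteins, and it was highest in animal 1, at 9.34.

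Among the deubiquitinating enzymes, USP47, which acts on the repair polymerase beta, was brightest at 12.65 ± 0.24. USP38 stood at 11.90 ± 0.36, USP28, known as a regulator of MYC stability, at 11.58 ± 0.34 and USP22, a subunit of the SAGA chromatin complex, at 11.42 ± 0.24. USP10 had 11.21 ± 0.35 and USP53 11.20 ± 0.59. Both deubiquitinases that sit on the proteasome were measured, UCHL5 at 12.07 ± 0.13 and USP14 at 10.79 ± 0.20. UCHL3 had 11.90 ± 0.30 and OTUD4 11.16 ± 0.32. USP19, studied in muscle wasting, stood at 10.25 ± 0.22 with a lowest value of 9.87 and a highest of 10.54. USP15, an enzyme of TGF-beta signalling, had 11.13 ± 0.36, with animals 6 (11.87) and 5 (11.69) above the other 8, which lay from 10.77 to 11.08. The remaining tested USP genes ran from USP42 (7.78 ± 0.43) to USP5 (10.21 ± 0.28), the enzyme that recycles free ubiquitin chains. The cullins stood at 11.58 ± 0.39 (CUL1), 10.55 ± 0.21 (CUL2), 8.32 ± 0.36 (CUL7) and 8.30 ± 0.81 (CUL5).

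**Figure D1:**
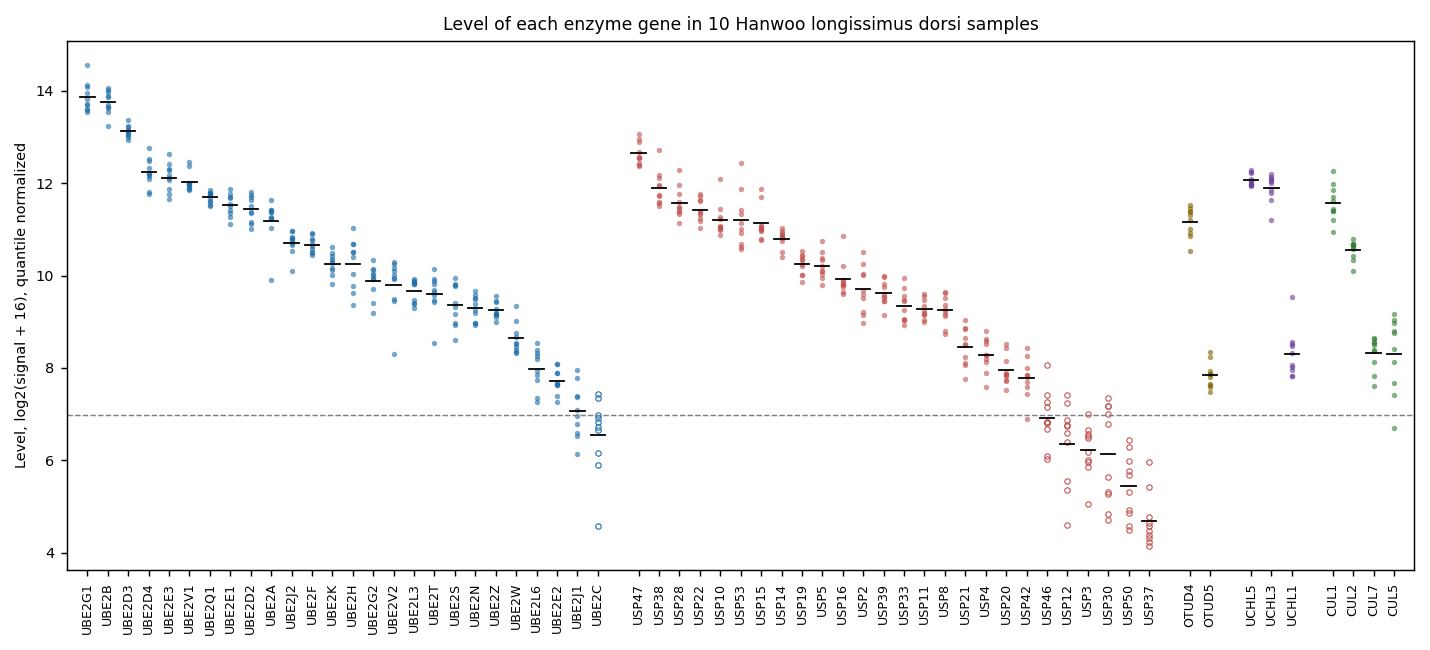
Level of each of the 61 genes (log2(signal + 16), quantile normalized) in the 10 animals, 1 dot per animal, with a bar at the mean and the genes ordered by mean within UBE2, USP, OTUD, UCHL and CUL. The dashed line is the filter at 6.98. Open dots mark the 7 genes below it. UBE2A, UBE2T and UBE2V2 each have a single low dot, which is animal 5, and UCHL1 a single high dot, which is animal 8.

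The spread of the enzyme genes between animals was somewhat smaller than that of genes at large. Their probe sets were also brighter, with a median level of 10.25 against 9.24 over all tested genes, and spread was not compared at matched levels. The median SD was 0.31 over the 54 tested members and 0.36 over the 6271 tested genes. An SD over 0.5 was found for 7 of 54 members (13.0%), against 22.1% of all tested genes. Without animal 5 the median SD was 0.26 for members and 0.31 for all genes, and 4 of 54 members (7.41%) had an SD over 0.5, against 14.5% of all tested genes. Leaving out animal 5 lowered the SD by more than 1.5 times in 7 genes. Without it the SD was 0.17 for UBE2A, USP10 and USP16, 0.14 for UBE2J2, 0.23 for UBE2T, 0.30 for UBE2V2 and 0.18 for UCHL3. The shares above are descriptions, and no test of the difference was made. The 4 steadiest genes were UBE2D3 and UBE2Q1, both at an SD of 0.12, UCHL5 at 0.13 and UBE2F, the NEDD8 conjugating enzyme, at 0.17. UCHL5 lay between 11.93 and 12.28 in all 10 animals, a 1.27-fold range.

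CUL5, the scaffold of ligases that carry SOCS-box proteins, varied most among the tested members. Its values in animals 1 to 10 were 8.12, 8.79, 9.03, 6.70, 8.98, 8.75, 7.42, 9.16, 7.68 and 8.41. Animals 4, 7 and 9 were low and animals 3, 5 and 8 high, with an SD of 0.81 that was 0.82 without animal 5. CUL5 was read by 1 probe set, so no second reading of this spread was available. CUL1, the scaffold of the SCF ligases, ran from 10.95 in animal 5 to 12.26 in animal 10. Its 2 brightest probe sets moved together (r = 0.858 over 10 animals, 0.837 without animal 5), and in both of them animal 5 was lowest and animal 10 highest.

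Other variable genes differed in which animals were high. UBE2J1 ran from 6.13 in animal 4 to 7.95 in animal 7 (SD 0.58), close to the filter. UBE2H, a conjugating enzyme abundant in maturing red cells, ran from 9.36 in animal 5 to 11.02 in animal 4 (SD 0.54, 0.46 without animal 5). Animals 3, 5 and 7 were its 3 lowest, at 9.77 or less, while the others stood at 10.03 or more. The red cell markers HBB, ALAS2 and SLC4A1 were below the filter, with means of 5.70, 4.66 and 4.52, and HBA passed it at 6.99; their part in the UBE2H spread was not tested. USP53 was highest in animals 5 (12.44) and 4 (11.88) and lowest in animal 1 (10.58), with an SD of 0.59 that was 0.43 without animal 5.

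UCHL1, a ubiquitin hydrolase best known from neurons, was high in a single animal. Animal 8 had 9.54, while the remaining 9 lay from 7.82 to 8.57. Its SD was 0.52, and 0.51 without animal 5. Of the nerve markers measured, S100B was 11.26 in animal 8, within its range of 10.38 to 11.36, and NEFL was below the filter in animal 8, at 4.38. These 2 were the measured genes of a list of 5, and their part in the UCHL1 value was not tested. The slow myosin MYH7 was 15.72 in animal 8, near the low end of its narrow range of 15.70 to 15.93 (SD 0.08).

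USP2, a deubiquitinase whose transcript follows the circadian clock in mouse tissues, ran from 8.98 to 10.50 (SD 0.50). Animals 10, 2, 8 and 9 were high at 10.50, 10.25, 10.03 and 10.02, and animals 3, 7 and 6 low at 8.98, 9.15 and 9.21. UBE2L6, the conjugating enzyme for the interferon-induced modifier ISG15, ran from 7.26 to 8.53 (SD 0.44). It was lowest in animals 1 and 2, at 7.26 and 7.35, and its 2 brightest probe sets had r = 0.630. The second of them was lowest in animals 10 and 2, at 6.97 and 7.15, and read 7.61 in animal 1. The low value of UBE2L6 in animal 1 thus rests on its brightest probe set. UBA7, the activating enzyme for ISG15, and ISG15 itself, which was below the filter, were lowest in animal 1. ISG15 stood at 4.89 there, against a median of 7.01, and UBA7 lay from 6.95 to 8.37 in the other 9 animals.

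UBE2S and UBE2T, of mitosis and of DNA repair, both passed the filter, at 9.37 ± 0.46 and 9.61 ± 0.44. Both were highest in animal 1 (9.95 and 10.15) and lowest in animal 5 (8.60 and 8.53). UBE2C, the mitotic partner of UBE2S, did not pass the filter. Of the 5 measured markers of dividing cells, PCNA passed at 10.63, and CDK1, CCNB1, CCNA2 and BIRC5 had means from 4.57 to 5.89. The part of dividing cells in the UBE2S and UBE2T levels was not tested.

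Animal 5 gave the extreme value for many enzyme genes, at about the share seen in all genes. It was the lowest of the 10 animals for 15 of 54 members (27.8%), against 27.6% of all tested genes, and the highest for 12 (22.2%), against 21.1% of all tested genes. The direction differed by family. Animal 5 was lowest for 11 of 25 UBE2 genes and highest for 4, while among 20 USP genes it was lowest for 1, USP5, and highest for 8. Its difference from the median of the other 9 had a median of 0.46 over the USP genes and 0.02 over the UBE2 genes, against -0.08 over all tested genes. With the deposited scaling these were 0.43, -0.09 and -0.11, and with arrays centred on their median 0.56, 0.01 and -0.02. For the USP genes 16 of 20 differences were above 0 under each of these 3 scalings. In the same order of scalings, 13, 11 and 13 of 25 UBE2 genes were above 0. Over all tested genes the counts were 2829 of 6271, 2748 of 6272 and 3083 of 6272. Second probe sets above the filter read otherwise. In all 5 USP genes that had one, it put animal 5 below the median of the other 9. The differences were -0.42 (USP8), -0.06 (USP21), -0.44 (USP28), -0.93 (USP33) and -0.58 (USP38). In tested USP genes whose second probe set was below the filter, it put animal 5 above for USP14 (1.33), USP15 (1.58) and USP20 (1.26). For USP42 it put animal 5 below (-0.13). The difference between the families was not tested, since it comes from a single array.

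**Figure D2:**
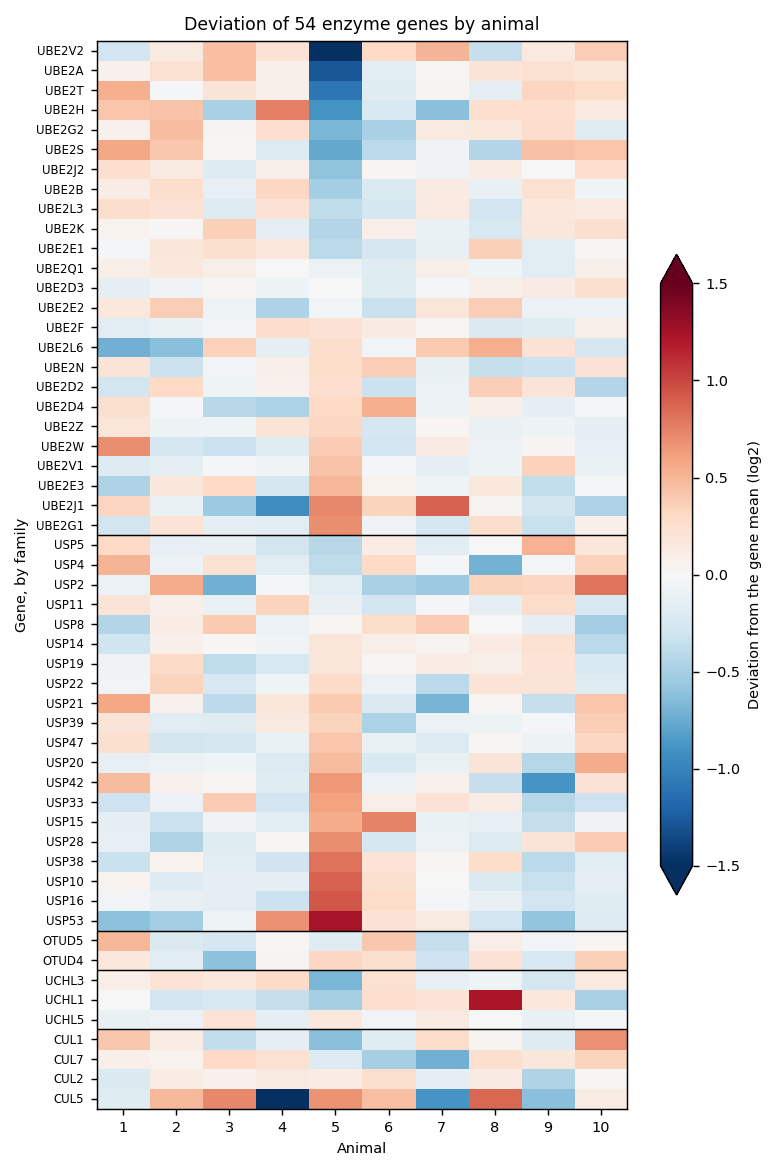
Deviation of each of the 54 tested genes from its own mean over the 10 animals (log2, colour scale from -1.5 to 1.5), with animals in columns and genes in rows, grouped by family (UBE2, USP, OTUD, UCHL, CUL from top to bottom) and ordered within a family by the difference of animal 5. Animal 5 holds the darkest blue cells among UBE2 genes (UBE2V2, UBE2A, UBE2T) and most of the dark red cells among USP genes (USP53, USP16, USP10).

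Of the UBE2 genes, animal 5 lay farthest from the others in UBE2V2, a UBE2N partner in chains that serve signalling and DNA damage tolerance. UBE2V2 had 8.30 in animal 5 and lay from 9.44 to 10.30 elsewhere. UBE2A, which acts with RAD18 on damaged DNA, stood at 9.91 in animal 5, against 11.02 to 11.64 in the others. UBE2T was 8.53 in animal 5, against 9.43 to 10.15. In these 3 genes animal 5 was below the whole range of the rest. A single animal stood apart, with a gap to its nearest neighbour that was large for the range (Dixon's ratio), in 7 of 54 members (13.0%), against 16.7% of all tested genes. Among the USP genes, USP16, a histone deubiquitinase, reached 10.86 in animal 5 and 9.61 to 10.20 in the others. USP10, which acts on p53, reached 12.09 in animal 5 and 10.87 to 11.45 in the others.

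Second probe sets did not always show the shift of animal 5. For UBE2V2 the brightest probe set differed by -1.71 from the median of the other 9 and the second by 0.32. For UBE2A these differences were -1.46 and -0.30, and for USP38 they were 0.97 and -0.58. UBE2G2, an enzyme of endoplasmic reticulum protein degradation, was low on both (-0.83 and -1.16), as was CUL1 (-0.67 and -1.22). The 2 probe sets of UBE2G2 had r = 0.331, and r = -0.582 without animal 5, so they did not move together in the other animals. Of 12 members with 2 probe sets above the filter, the signs matched in 5, against 733 of 1315 genes (55.7%) in all. The median r between the 2 brightest probe sets was 0.417 over these 12 members and 0.343 over the 1315 genes; without animal 5 it was 0.540 and 0.407. USP8 had r = 0.816 and USP33 r = -0.482. These r values describe the arrays, and no p was computed.

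**Figure D3:**
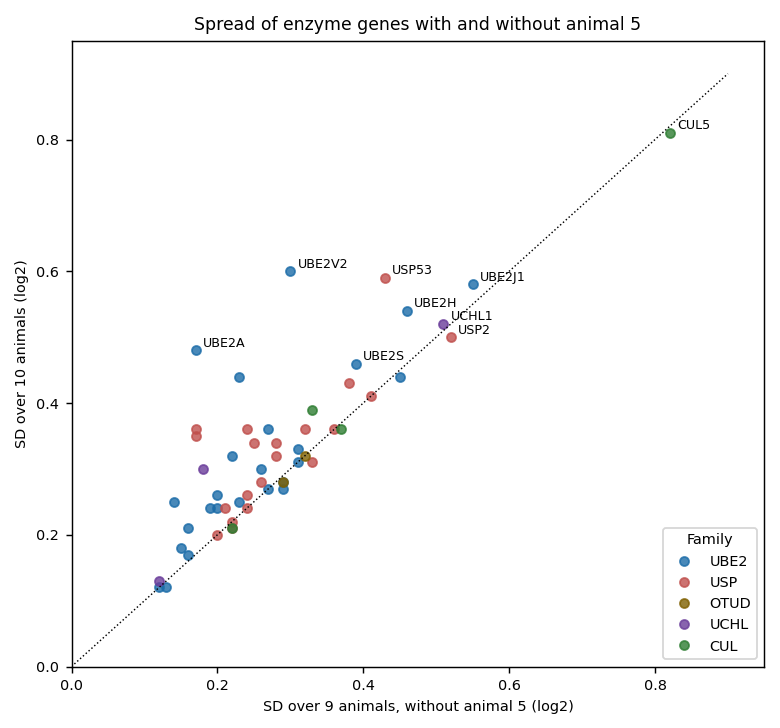
SD of each of the 54 tested genes over all 10 animals (vertical axis, log2) against its SD over the 9 animals other than animal 5 (horizontal axis, log2), coloured by family, with a dotted line of equality. UBE2V2 (0.60 and 0.30) and UBE2A (0.48 and 0.17) lie far above the line. CUL5, UBE2J1, UCHL1 and USP2 lie on or near it.

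Whether the enzymes vary with the proteasome they feed was examined with a score, the mean deviation of 30 proteasome subunit genes. In limma, 3 members rose with the score and 3 fell, all of them genes in which animal 5 was extreme. The score itself was -0.63 in animal 5 and -0.11 to 0.27 in the other 9 (SD 0.24), and animal 5 was the lowest for 20 of the 30 subunit genes. For each SD of the score UBE2A rose by 0.45 (SE 0.08, limma adjusted p = 0.00463), with 7 of 10 animals on the side of the slope. UBE2T rose by 0.40 (SE 0.08, adjusted p = 0.00969, 7 of 10 animals) and UBE2V2 by 0.51 (SE 0.11, adjusted p = 0.0109, 8 of 10 animals) in limma. USP38 fell by 0.31 (SE 0.08, limma adjusted p = 0.025, 8 of 10 animals). USP16 fell by 0.31 (adjusted p = 0.0258) and USP10 by 0.28 (adjusted p = 0.0421), each with 7 of 10 animals on the side of the limma slope.

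The 3 members that rose were 5.56% of 54, against 8.41% of 6241 genes outside the score, and the 3 that fell were 5.56%, against 3.19%. Over the members the median slope was -0.07, with 21 of 54 above 0. Over all 6271 tested genes it was 0.02, with 3380 above 0. UCHL3 (0.25, limma adjusted p = 0.0503) and USP53 (-0.42, limma adjusted p = 0.0613) did not pass. Without animal 3, limma called 12 members (22.2%), against 15.8% of all genes. Without animal 5, it called 0 of 54 members, against 0% of all genes, with 1 member at an unadjusted p below 0.05. The slopes were then 0.10 for UBE2A, 0.13 for UBE2T, 0.09 for UBE2V2, -0.14 for USP38, -0.04 for USP16 and -0.01 for USP10. Their unit is the SD of the score over the remaining animals, which is smaller than over all 10. Their sizes therefore cannot be set directly beside the slopes over all 10 animals. By Spearman correlation over the 10 animals 0 members passed, and 4 had an unadjusted p below 0.05. The RNA or array difference marked by the control RNAs and the animal itself cannot be told apart in animal 5.

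**Figure D4:**
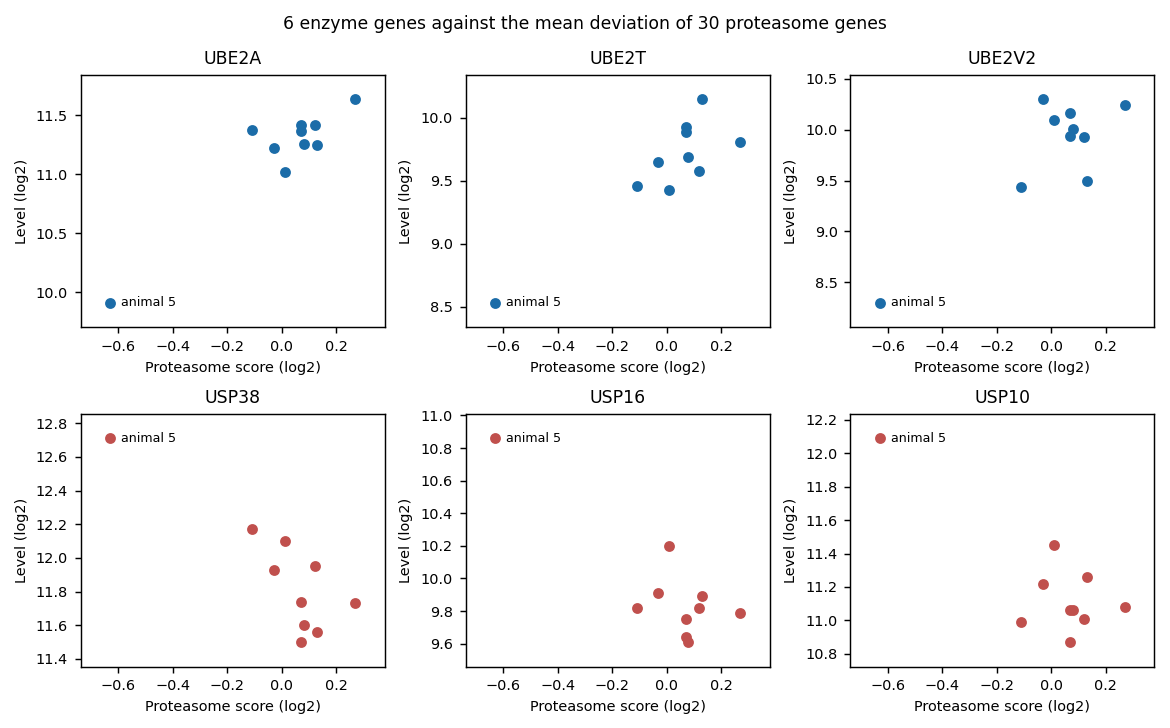
Level (log2) of the 6 genes that passed the test against the proteasome score (mean deviation of 30 subunit genes, log2), 1 dot per animal. Animal 5, at a score of -0.63, lies below all other animals for UBE2A, UBE2T and UBE2V2 and above them for USP38, USP16 and USP10. The other 9 animals lie between -0.11 and 0.27.

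The muscle ligase FBXO32, which marks muscle wasting, was used as a second measure; its companion TRIM63 was not analysed here. FBXO32 ran from 12.11 in animal 3 to 12.91 in animal 2. No member passed in limma (0 of 54, against 0% of all genes), and 1 had an unadjusted p below 0.05 (1.85%, against 3.13% of all genes). By Spearman correlation 0 members and 1 gene in all passed, and 2 members had an unadjusted p below 0.05. The 1 member in limma was USP2, with a slope of 0.35 per SD of FBXO32 (SE 0.12, limma unadjusted p = 0.0142, adjusted p = 1, 8 of 10 animals). USP2 was high in animals 2, 8 and 10, the same 3 animals in which FBXO32 was highest, but the slope did not pass. In animal 9 USP2 was as high as in animal 8 (10.02 and 10.03), while FBXO32 stood at 12.19, below its median of 12.35. UBE2H (0.26) and CUL1 (0.19) had the next smallest p-values. For UBE2B and USP19, both known from muscle wasting, the slopes were 0.04 (SE 0.10) and 0.06 (SE 0.09), and neither passed.

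Fat content is a main beef trait, so the members were also set against a score of 9 adipocyte genes. The score ran from -0.77 in animal 10 to 1.31 in animal 9. Of its genes, ADIPOQ, FABP4, CIDEC, DGAT2, SCD and FASN were highest in animal 9. CIDEA was highest in animal 3, GPAM in animal 1 and LPL in animal 5, so the score genes did not all move together. No member passed in limma (0 of 54, against 0% of all genes), and 3 had an unadjusted p below 0.05 (5.56%, against 5.45% of all genes, so at the background share). By Spearman correlation 0 members and 0 genes in all passed, and 2 members had an unadjusted p below 0.05. The 3 were USP42, with a slope of -0.31 (adjusted p = 0.758), USP20 with -0.24 (adjusted p = 0.8) and CUL5 with -0.48 (adjusted p = 0.836) in limma. Without animal 9, which had the highest score, the USP42 slope was -0.12. Its unit is then the SD of the score over the remaining animals, which is smaller than over all of them. All 3 slopes were below 0. The median slope was -0.03 over the 54 members and 0.02 over all tested genes, a difference that was not tested. CUL5 was low in animal 9 and lowest in animal 4, which had the next highest score.

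Other genes of the pathway were described beside the members. Of 7 tested activating enzymes, 0 rose or fell with the proteasome score in limma; UBA1, which starts the ubiquitin cascade, stood at 11.65 ± 0.27. Of 4 tested ubiquitin-like genes 2 rose, NEDD8 (0.54, limma adjusted p = 0.00325) and UBL5 (0.41, limma adjusted p = 0.00988). NEDD8 had 11.28 in animal 5 and 12.86 to 13.19 elsewhere. Of 7 cullin partners 1 fell, CAND2 (-0.38, limma adjusted p = 0.00659), a muscle relative of the cullin exchange factor CAND1, which was 13.36 in animal 5 and 11.83 to 12.55 in the others. Of 7 tested deubiquitinases of other families 1 rose, OTUB1 (0.52, limma adjusted p = 0.00339). Of 7 genes of the COP9 signalosome, which strips NEDD8 from cullins, 0 passed in limma. All 4 genes that passed were extreme in animal 5, and no gene passed without it.

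Genes whose proteins work as a pair were compared over the 10 animals. Both genes passed the filter in 7 of 20 chosen pairs. USP14 was set against PSMD2, a subunit of the proteasome base on which USP14 sits, and the relation depended on the processing. Pearson's r was -0.771 (permutation p = 0.00906, adjusted p = 0.0634 over 7 pairs) and Spearman's rho was -0.867 (permutation p = 0.00189, adjusted p = 0.0132). Only the rank correlation passed the adjustment. With arrays centred on their median r was -0.198 (permutation adjusted p = 0.707), and with the probe sets of a gene averaged it was -0.268 (permutation adjusted p = 0.532). The second probe set of USP14 in that average was below the filter, with a mean of 5.93. Its SD was 1.04, against 0.20 for the first. Without the 2 animals farthest from the median of USP14 r was -0.727, and without animal 5 it was -0.744. USP14 was lowest in animals 10 and 1, at 10.39 and 10.50, and PSMD2 was highest in animal 10 at 12.83. Both genes moved little, over 0.62 for USP14.

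The cullin CUL5 had r = 0.607 with its RING partner RNF7 (permutation p = 0.0617, adjusted p = 0.216). Its rho was 0.661 (permutation p = 0.0447, adjusted p = 0.156), and r was 0.740 without the 2 farthest animals. UCHL5 had r = -0.480 with its proteasome receptor ADRM1 (permutation p = 0.155, adjusted p = 0.276) and rho = -0.479 (permutation p = 0.163). UBE2L6 had r = 0.479 with UBA7 (permutation p = 0.158, adjusted p = 0.276) and rho = 0.091 (permutation p = 0.811). Without the 2 farthest animals r was -0.589 for UCHL5 and 0.162 for UBE2L6. For UBE2N, the r with UBE2V1 was 0.042 and with UBE2V2 -0.205 (permutation p = 0.901 and 0.627, adjusted 0.958 and 0.877). The matching rho values were 0.164 and 0.079 (permutation p = 0.654 and 0.837), and r without the 2 farthest animals was 0.403 and -0.374. CUL1 and CAND1 had r = 0.019 (permutation p = 0.958, adjusted p = 0.958) and rho = 0.091 (permutation p = 0.811), with r = 0.044 once the 2 farthest were left out. The r values near 0 had no stable sign. Without animal 5 r was -0.586 for CUL1 and CAND1, -0.323 for UBE2N and UBE2V1, 0.247 for UBE2N and UBE2V2, and -0.228 for UCHL5 and ADRM1, which kept its sign. Without animal 1, r was -0.007 for UBE2L6 and UBA7 and -0.090 for CUL1 and CAND1, which was also below 0 without animal 7 (-0.035). UBE2N and UBE2V1 were also below 0 without animal 2 (-0.070) and without animal 8 (-0.028).

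**Figure D5:**
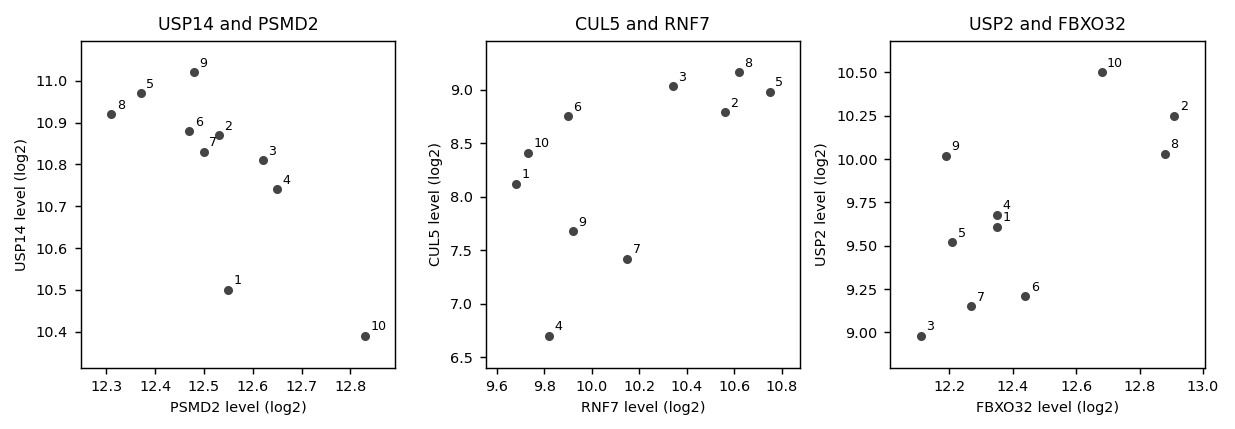
Levels (log2) of USP14 against PSMD2, CUL5 against RNF7 and USP2 against FBXO32, 1 dot per animal with its number. USP14 is lowest in animals 10 and 1. CUL5 is low in animals 4, 7 and 9. USP2 and FBXO32 are both high in animals 2, 8 and 10, while animal 9 is high in USP2 only.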

How the data were processed

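Each array has 1 deposited intensity for every probe set, on a linear scale, summarised by the authors with software not given in the sources used here. Per the labels, poly(A) RNA was biotin-labelled by the array maker's protocol. The values show a common scaling, with a mean of 500.2 on every array without the lowest and highest 2% of probe sets. Intensities were turned into log2(signal + 16) and quantile normalized without the 112 control probe sets. Symbols came from the platform annotation, and RefSeq names (ARS-UCD2.0) changed 0 of them. Scores are means, over tested genes, of deviations from the gene mean. The slopes were fitted over all tested genes with limma 3.58.1 in R 4.3.3, Benjamini-Hochberg adjusted at 0.05. Their unit is the SD of the score over the animals in the fit. Permutation tests were two-sided with 100000 resamples. For the proteasome fit, 6271 independent genes were simulated with the real means and SDs. Of the added changes, 56% of the smaller size and 99% of the larger (a slope of 1 per SD) were recovered, with 8 of 163 calls false. The simulation leaves out the shift of many genes in animal 5, so its share of false calls does not apply to the real calls. Nothing but the numbering marks the samples as separate animals, so p-values hold only if they are.

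Members and lists were chosen with earlier results of these data known. Named genes are the brightest of each family, the 10 with the largest and 4 with the smallest SD, those past a test or with the 3 smallest p-values, the partner pairs and those with 1 animal apart. Genes named for a second probe set were chosen after their values were seen. Red cell, nerve and dividing cell markers were set beside the genes they bear on. Alternatives covered scaling, filter, pseudocount, probe set choice, each animal left out, a covariate for the end bias of the poly(A) controls and rank correlation. The number of arrays limits the precision.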

Additional observations from a re-analysis of the deposited data

Results flagged for a closer look

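A single animal stood apart in 7 of the 54 tested members (13.0%), against 16.7% of all tested genes, where the gap to the nearest animal, divided by the range, was above Dixon's critical value for 10 samples. Chance flags about 1 gene in 20. Animal 5 was the low one for UBE2A (0.643), UBE2V2 (0.569), UBE2T (0.558) and UBE2J2 (0.489) and the high one for USP16 (0.528) and USP10 (0.521). Animal 8 was the high one for UCHL1 (0.562). The proteasome score (0.579) was low in animal 5 and the 3′ minus 5′ difference of the poly(A) control RNAs (0.851) was high there. With that difference as a covariate limma called 0 of the 54 members for the proteasome score, with 2 at an unadjusted p below 0.05. The slopes of UBE2T (0.41, SE 0.22) and USP38 (-0.39, SE 0.22) were then no smaller than without the covariate (0.40 and -0.31, both SE 0.08). Animal 5 was extreme in both the score and the covariate, so this fit cannot tell them apart. Why the calls were lost was not tested.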

How the results depend on the processing

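The count of 6 members called with the proteasome score was 0 without animal 5, 12 without animal 3 and 5 or 6 with any other animal left out. It was 3 with arrays centred on their median, 3 with no level filter, 11 with the filter at the 75th percentile, where fewer genes were tested, 0 with a covariate for the poly(A) end bias and 0 by Spearman correlation; the cause was not tested. With the covariate the USP10 slope was 0.07, opposite in sign, while UBE2T (0.41) and USP38 (-0.39) kept slopes at least as large, UBE2A and UBE2V2 had 0.14 and 0.15, and USP16 had -0.03. When probe sets of a gene were averaged, the slopes of UBE2V2 (0.19, limma adjusted p = 0.18) and USP38 (-0.06, limma adjusted p = 0.612) no longer passed. The count of 7 members with an SD over 0.5 was 14 with no filter, 4 with the 75th percentile filter, 4 with a larger pseudocount, and 4 to 8 with an animal left out, the 4 being without animal 5. The median SD and the counts of 0 for FBXO32 and the adipocyte score kept their side under all alternatives run. With an animal left out, r ran from -0.586 to 0.597 for CUL1 and CAND1 (-0.289 with the mean of probe sets), from -0.007 to 0.679 for UBE2L6 and UBA7, from -0.324 to 0.381 for UBE2N and UBE2V1, from -0.350 to 0.246 for UBE2N and UBE2V2, from -0.878 to -0.539 for USP14 and PSMD2 (-0.198 with arrays centred on their median, -0.268 with the mean of probe sets), and from -0.778 to -0.225 for UCHL5 and ADRM1. The adjusted p for USP14 and PSMD2 passed without animal 1 and without animal 3, and that for UCHL5 and ADRM1 without animal 3.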

Other observations

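USP2 was set against 7 tested circadian clock genes of a list of 17, a comparison chosen after the USP2 values were seen. The repressor gene NR1D1 had r = 0.736 with USP2 (permutation p = 0.013, adjusted p = 0.0909 over 7 genes, n = 10). Its rho was 0.685 (permutation p = 0.0344, adjusted p = 0.241). Leaving out the 2 animals farthest from the USP2 median gave r = 0.471, and leaving out animal 5 gave 0.759. Both genes were highest in animal 10, USP2 at 10.50 and NR1D1 at 10.40. BHLHE40 had r = 0.623 (permutation p = 0.0588, adjusted p = 0.206). Its rho was 0.576 (permutation p = 0.0884), and r was 0.461 without the 2 farthest. The other 5 genes, PER2, CRY1, HLF, NFIL3 and RORA, had r from -0.099 to 0.340. Without animal 5, r was 0.635 for HLF, against 0.268 with it, and 0.713 for BHLHE40. No r passed the adjustment. Sampling times were not analysed here.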
